A study of Homo sapiens with 9 samples.

Results

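The genes described here are the 10 that encode the core enzymes placing and removing DNA methylation and the core subunits of polycomb repressive complex 2 (PRC2): the DNA methyltransferases DNMT1, DNMT3A and DNMT3B with the recruiting factor UHRF1, the dioxygenases TET1, TET2 and TET3, and the PRC2 subunits EZH2, EED and SUZ12. They were listed by gene symbol, with earlier results of these data known, and make up 10 of the 60880 gene rows in each count table. RNA was sequenced from LNCaP, an androgen-responsive human prostate cancer cell line, in 3 groups of 3 libraries. In the rescue group UGT2B28, which encodes an enzyme that conjugates steroids to glucuronic acid, was overexpressed in the knockdown background under G418 at 1 mg/mL. The knockdown group was 1 line selected with puromycin at 3 µg/mL for loss of UGT2B28, and the control group carried the NT construct, with no drug named. All cells were kept in RPMI with 10% fetal bovine serum and are labelled 24 h. Nothing in the labels tells whether the replicates came from separate cultures, and the p-values may thus reflect technical spread alone. Clone, drug and gene cannot be told apart in any of the 3 comparisons.

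Gene counts summed to 20300744 to 26459528 per library in rescue, 21753045 to 26145310 in knockdown and 21483664 to 26004347 in control. UGT2B28 itself had 1124, 1554 and 1857 counts in the rescue libraries, 17, 8 and 1 in the libraries labelled knockdown, and 25, 4 and 10 in control. It was higher in rescue than in knockdown (log2 fold change 7.41, adjusted p = 2.7e-08), whereas the log2 fold change in knockdown against control was -0.60 (adjusted p = 0.52), so that no loss could be detected at these counts. Any direction given for knockdown therefore belongs to the libraries labelled so. Of 3 luminal prostate markers, the androgen-induced protease gene KLK3 averaged 4407 ± 282.9 CPM (counts scaled to a common library size) in rescue, 3750 ± 150.8 CPM in knockdown and 1428 ± 140.7 CPM in control (SD, n = 3 each). The luminal keratins did not share this difference: KRT8 averaged 872 ± 42.5 CPM in rescue, 1063 ± 79.4 CPM in knockdown and 1012 ± 17.2 CPM in control, and KRT18 averaged 493.3 ± 18.3, 564.7 ± 43.1 and 470.4 ± 15.7 CPM in the same groups. The summed level of the 3 markers (5381 to 5980 CPM in rescue, 5161 to 5644 in knockdown, 2725 to 3034 in control) therefore follows KLK3. Summed basal markers were 2.94 to 4.72 CPM in rescue, 3.37 to 5.48 in knockdown and 1.53 to 2.78 in control, nearly all KRT14, which was higher in knockdown against control (log2 fold change 1.22, adjusted p = 0.0017) and in rescue against control (0.96, adjusted p = 0.01). VWF, an endothelial marker, was higher in the same comparisons (1.23, adjusted p = 0.00012, and 1.4, adjusted p = 1.6e-05), at 6.47 CPM on average in rescue, 5.75 in knockdown and 2.43 in control. COL1A1, a fibroblast marker, was lower in knockdown against control (-0.5, adjusted p = 0.00018) and higher in rescue against knockdown (0.39, adjusted p = 0.0081). The other fibroblast markers were nearly absent, with 1, 1 and 0 counts in rescue, knockdown and control for COL1A2 and 0, 1 and 0 for DCN. The endothelial marker CDH5 had 0, 0 and 3 counts in the same groups. Of 3 immune markers, the T-cell and leukocyte markers CD3E and PTPRC had no counts. The third, CD68, averaged 2.61 CPM in rescue, 3.15 in knockdown and 2.77 in control, and passed in no comparison. The part of these marker differences in the results below was not tested.

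DNA methylation is copied to the new strand after replication by DNMT1, which UHRF1 brings to hemimethylated CG sites, and is set at new sites by DNMT3A and DNMT3B. TET enzymes oxidise the methyl group of cytosine, using oxoglutarate and iron, which opens a route to its removal. PRC2 methylates histone H3 at lysine K27 through its catalytic subunit EZH2, or through the related EZH1, held together by EED and SUZ12, and represses genes; EZH2 is often highly expressed in advanced prostate cancer.

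Promoter sequence is shown for 4 of the genes, picked after their values were seen: DNMT3B and TET1, which have the largest fold changes of the set, and SUZ12 and UHRF1, which hold a motif of the cell-cycle factor family E2F. Each window runs 5′ to 3′ on the gene's own strand, from 250 bases before to 50 bases after a transcript start, as RefSeq gives it for GRCh38.p14; the counts were made on hg19. In the first pair the capitals mark CG dinucleotides, the substrate of the enzymes themselves. The DNMT3B window (chr20:32779602-32779901, plus strand) holds 3 CG, and the TET1 window (chr10:68560087-68560386, plus strand), 1 of 3 listed for TET1, holds 10. No other window is listed for DNMT3B, and other starts of the gene may hold different numbers of CG. The median over all 35116 windows in the table is 14.
DNMT3B: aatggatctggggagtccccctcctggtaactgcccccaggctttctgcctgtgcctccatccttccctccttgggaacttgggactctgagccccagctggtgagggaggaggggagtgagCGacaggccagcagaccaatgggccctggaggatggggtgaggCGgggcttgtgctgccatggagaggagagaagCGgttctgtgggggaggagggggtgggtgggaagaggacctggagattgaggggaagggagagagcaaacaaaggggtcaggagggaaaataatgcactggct
TET1: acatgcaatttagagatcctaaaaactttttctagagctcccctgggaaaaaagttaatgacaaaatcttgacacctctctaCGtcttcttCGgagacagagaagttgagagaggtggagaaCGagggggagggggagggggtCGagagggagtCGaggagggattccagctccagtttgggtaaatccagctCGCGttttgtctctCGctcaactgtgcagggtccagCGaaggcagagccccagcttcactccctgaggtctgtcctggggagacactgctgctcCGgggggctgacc
In the second pair the capitals mark an E2F-type 8-mer, and both windows are CG-rich, with 40 CG for SUZ12 (chr17:31936757-31937056, plus strand) and 36 for UHRF1 (chr19:4909251-4909550, plus strand).
SUZ12: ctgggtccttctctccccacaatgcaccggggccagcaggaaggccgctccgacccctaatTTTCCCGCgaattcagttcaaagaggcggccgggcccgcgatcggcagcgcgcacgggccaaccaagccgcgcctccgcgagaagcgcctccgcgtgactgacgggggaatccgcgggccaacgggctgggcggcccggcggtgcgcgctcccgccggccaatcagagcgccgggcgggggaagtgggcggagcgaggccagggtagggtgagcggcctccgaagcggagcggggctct
UHRF1: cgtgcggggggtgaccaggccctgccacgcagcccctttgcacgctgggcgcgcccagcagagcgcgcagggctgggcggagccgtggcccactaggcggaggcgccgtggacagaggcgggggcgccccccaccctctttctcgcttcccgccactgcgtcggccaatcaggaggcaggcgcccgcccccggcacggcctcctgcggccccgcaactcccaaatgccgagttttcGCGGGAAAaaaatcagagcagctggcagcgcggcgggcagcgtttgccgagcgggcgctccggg
The letters searched were TTTCCCGC, TTTGGCGC, TTTGCCGC and TTTCGCGC, on both strands. They occur in 3.31% of all windows and in 5 of the 22 windows of the 10 genes, those of DNMT1, UHRF1 (2 windows), EZH2 and SUZ12. Each of these 8-mers holds a CG, and the shares were not compared among windows of like CG number. A match is a description of the letters only, and RNA counts say nothing of binding there.

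All 10 genes passed the filter on low counts, and most of them moved little. In knockdown against control 3 of the 10 passed the edgeR quasi-likelihood test (Benjamini-Hochberg adjusted p under 0.05), TET1 higher and DNMT3B and TET2 lower, where 32.1% of all 18389 tested genes did (16.5% higher, 15.6% lower). In rescue against knockdown only DNMT3A passed, and it was higher, against a background of 10.1% (5.2% higher, 4.88% lower). In rescue against control 4 passed, TET1, TET3 and SUZ12 higher and DNMT3B lower, against 37.8% (19% higher, 18.8% lower). These shares lie near the background and are not a result about the set. Groups did not overlap for 4 genes in knockdown against control, 3 in rescue against knockdown and 5 in rescue against control, where 42.5%, 27.5% and 48.1% of all genes did not. The median absolute log2 fold change of the 10 genes was 0.19, 0.13 and 0.20 in the same order of comparisons, against 0.29, 0.19 and 0.33 over all genes. The values over all genes were not matched for count level, so this difference is no result about the set either. The 3 comparisons share libraries and are not independent of each other.

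**Figure D1:**
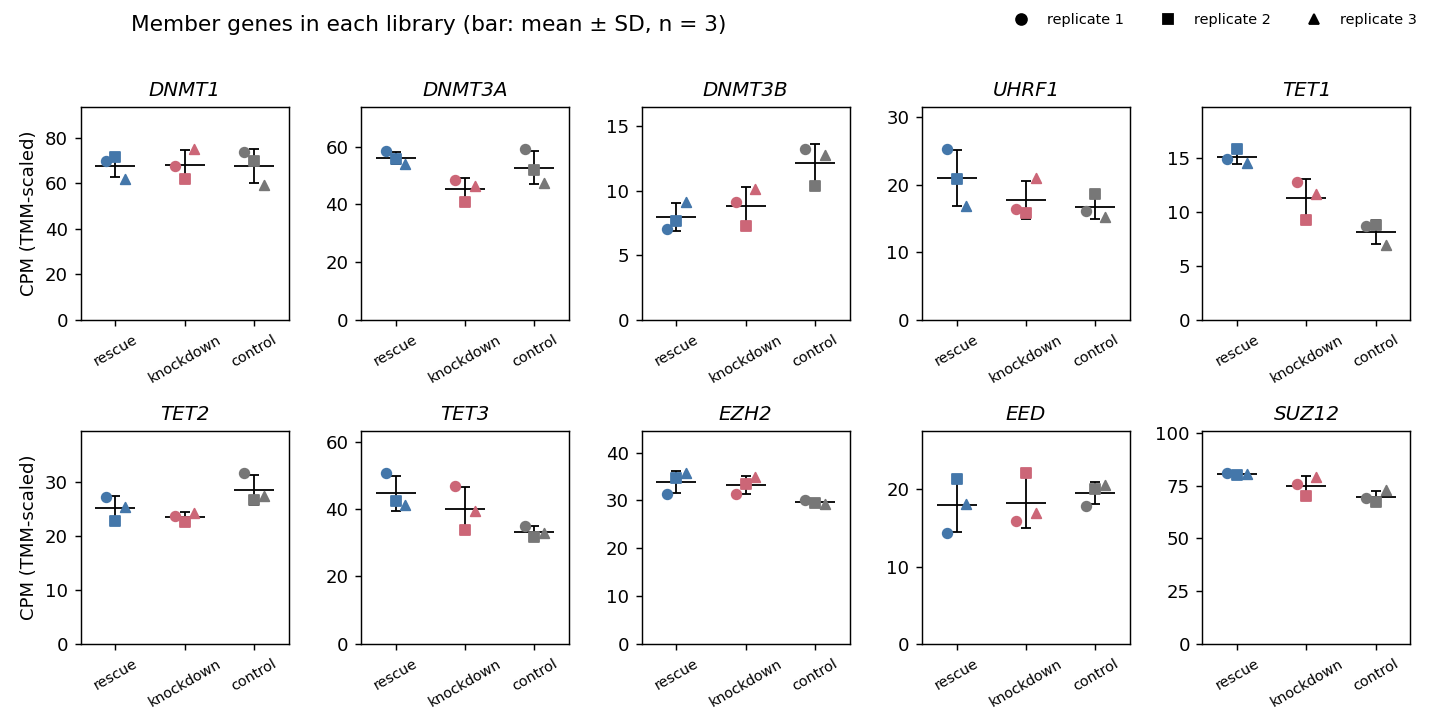
Level of each of the 10 genes in every library, in CPM (depth-normalized counts), with a point per library and lines at the group mean ± SD (n = 3) for rescue, knockdown and control. TET1 separates all 3 groups, DNMT3B is highest in the 3 control libraries, and the DNMT1 and EED points of the groups overlap.

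Among the methyltransferases, DNMT3B, a de novo enzyme, was the one that differed from control. DNMT3B (ENSG00000088305.18_3) had 7.01, 7.66 and 9.14 CPM in rescue, 9.11, 7.28 and 10.1 CPM in knockdown and 13.2, 10.4 and 12.8 CPM in control. Every control library lay above all 6 others, while rescue and knockdown overlapped. In rescue against control the log2 fold change was -0.61 (SE 0.17, 95% interval -0.95 to -0.27, adjusted p = 0.0043), a level 0.655 times that of control. This call held without any 1 of the 9 libraries (adjusted p 0.0028 to 0.029). In knockdown against control DNMT3B fell by 0.46 on the log2 scale (SE 0.17, adjusted p = 0.033). That call was lost without control 1 (adjusted p = 0.105), control 3 (0.0977), knockdown 1 (0.0605) or knockdown 2 (0.175). DNMT3B is also the set's least counted gene, with 143 to 352 counts per library.

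DNMT3A, the other de novo enzyme, was the only gene of the set that passed between rescue and knockdown. DNMT3A (ENSG00000119772.16_3) had 58.4, 55.6 and 54.2 CPM in rescue, 48.6, 40.7 and 46.4 CPM in knockdown and 59.1, 51.8 and 47.5 CPM in control. All rescue libraries lay above all knockdown libraries, and control overlapped both groups. The log2 fold change was 0.31 in rescue against knockdown (SE 0.09, 95% interval 0.11 to 0.50, adjusted p = 0.035), a 1.24-fold rise. It no longer passed without knockdown 2 (adjusted p = 0.172), knockdown 3 (0.0671), rescue 1 (0.136), rescue 2 (0.0849) or rescue 3 (0.0604). In knockdown against control the log2 fold change was -0.22 (adjusted p = 0.074), and it passed without control 3 (0.0339); in rescue against control it was 0.09 (95% interval -0.11 to 0.28, adjusted p = 0.52).

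DNMT1, the maintenance enzyme, had almost the same level in all groups. DNMT1 (ENSG00000130816.15_4) had 69.6, 71.3 and 61.8 CPM in rescue, 67.6, 61.7 and 74.8 CPM in knockdown and 73.6, 69.7 and 59.2 CPM in control, so the groups overlapped fully. The 95% interval of its log2 fold change was -0.18 to 0.20 in knockdown against control, -0.20 to 0.18 in rescue against knockdown and -0.19 to 0.19 in rescue against control. DNMT1 shares 83 exon bases with S1PR2, a lipid receptor gene on the same strand that averaged 4.52 ± 0.872 CPM in rescue, 4.78 ± 0.837 CPM in knockdown and 6.72 ± 0.301 CPM in control (SD, n = 3 each).

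UHRF1, which reads hemimethylated DNA and recruits DNMT1, passed in no comparison. UHRF1 (ENSG00000276043.4_4) had 25.2, 20.8 and 16.9 CPM in rescue, 16.4, 15.8 and 21.0 CPM in knockdown and 16.1, 18.6 and 15.2 CPM in control. The groups overlapped, with the highest value in rescue 1. In rescue against control the log2 fold change was 0.33 (95% interval 0.04 to 0.62, adjusted p = 0.068), and it passed without control 2 (adjusted p = 0.0409) or rescue 3 (0.0154) and with no filter on low counts (0.0481). In knockdown against control it was 0.09 (95% interval -0.20 to 0.38) and in rescue against knockdown 0.24 (-0.05 to 0.53).

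Of the TET dioxygenases, TET1 had the largest difference in the set. TET1 (ENSG00000138336.8_3) had 14.9, 15.8 and 14.5 CPM in rescue, 12.8, 9.25 and 11.7 CPM in knockdown and 8.72, 8.82 and 6.90 CPM in control. The 3 groups did not overlap, with rescue highest and control lowest. In rescue against control TET1 was 1.85-fold higher (log2 fold change 0.89, SE 0.15, 95% interval 0.57 to 1.2, adjusted p = 3.2e-05), and this held without any 1 of the 9 libraries (log2 fold change 0.78 to 0.95, adjusted p 1.5e-05 to 0.00062). In knockdown against control it was 1.38-fold higher (log2 fold change 0.46, SE 0.15, adjusted p = 0.022), a call lost without control 3 (adjusted p = 0.123), knockdown 1 (0.126) or knockdown 3 (0.0642). In rescue against knockdown the log2 fold change was 0.42 (SE 0.15, 95% interval 0.12 to 0.73, adjusted p = 0.071), which passed without control 1 (0.0461) and when only the rescue and knockdown libraries were fitted (0.0386).

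TET3, an enzyme of the same family known in mouse for its role in the zygote, also had its highest levels in rescue. TET3 (ENSG00000187605.15_2) had 50.7, 42.4 and 41.2 CPM in rescue, 46.8, 33.8 and 39.5 CPM in knockdown and 35.0, 31.6 and 32.9 CPM in control. Rescue lay above control throughout, and knockdown overlapped both. TET3 was higher in rescue against control (log2 fold change 0.43, SE 0.11, 95% interval 0.21 to 0.66, adjusted p = 0.0026), also without any 1 of the 9 libraries (adjusted p 0.0012 to 0.032). In knockdown against control the log2 fold change was 0.27 (adjusted p = 0.060), and it passed without control 1 (0.0429) or knockdown 2 (0.0128) and with no filter on low counts (0.0438); in rescue against knockdown it was 0.16 (95% interval -0.07 to 0.38).

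TET2, often mutated in myeloid leukaemia, had the opposite sign to TET1 in knockdown against control. TET2 (ENSG00000168769.13_3) had 27.2, 22.7 and 25.4 CPM in rescue, 23.6, 22.6 and 24.3 CPM in knockdown and 31.6, 26.6 and 27.3 CPM in control. Control lay above knockdown in every library and overlapped rescue. The log2 fold change in knockdown against control was -0.28 (SE 0.11, 95% interval -0.50 to -0.06, adjusted p = 0.048). This value sits at the threshold: the call was lost without any 1 library except control 2, with adjusted p up to 0.21, and also when only these groups were fitted (0.0575) or no filter on low counts was used (0.0847). In rescue against control the log2 fold change was -0.19 (95% interval -0.41 to 0.04, adjusted p = 0.19). The antisense gene TET2-AS1 overlaps TET2 with no shared exon bases and had 3 counts in rescue, 2 in knockdown and 2 in control.

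The PRC2 core differed less between groups. SUZ12 (ENSG00000178691.10_3), a scaffold subunit, had 81.0, 80.2 and 80.8 CPM in rescue, 75.9, 70.1 and 79.0 CPM in knockdown and 69.3, 67.5 and 72.8 CPM in control. Rescue lay above both other groups, which overlapped. In rescue against control SUZ12 was 1.15-fold higher (log2 fold change 0.21, SE 0.08, 95% interval 0.05 to 0.37, adjusted p = 0.036), a call lost without control 1 (adjusted p = 0.0634), control 2 (0.114), rescue 1 (0.0845), rescue 2 (0.0771) or rescue 3 (0.0739), and with no filter on low counts (0.072). The log2 fold change was 0.11 in rescue against knockdown (95% interval -0.05 to 0.26) and 0.10 in knockdown against control (-0.06 to 0.26). SUZ12 has a near-identical copy, the pseudogene SUZ12P1, so its reads may be split; SUZ12P1 averaged 10.7 ± 2.85 CPM in rescue, 11.2 ± 1.79 CPM in knockdown and 14.4 ± 2.88 CPM in control (SD, n = 3 each).

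EZH2, the catalytic subunit, passed in no comparison, although its groups did not overlap with control. EZH2 (ENSG00000106462.10_4) had 31.3, 34.7 and 35.7 CPM in rescue, 31.3, 33.4 and 35.0 CPM in knockdown and 30.1, 29.4 and 29.3 CPM in control. The 3 control libraries were the lowest, and rescue and knockdown overlapped. The log2 fold change was 0.17 in knockdown against control (95% interval -0.04 to 0.37, adjusted p = 0.21), 0.20 in rescue against control (-0.01 to 0.40, adjusted p = 0.12) and 0.03 in rescue against knockdown (-0.17 to 0.23, adjusted p = 0.90).

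EED, which binds the finished K27 mark, did not pass either. EED (ENSG00000074266.19_3) had 14.4, 21.4 and 18.1 CPM in rescue, 15.9, 22.1 and 16.9 CPM in knockdown and 17.9, 20.0 and 20.6 CPM in control. All groups overlapped, and rescue and knockdown each spread over a wider range than control. The 95% interval of the log2 fold change was -0.37 to 0.20 in knockdown against control, -0.32 to 0.26 in rescue against knockdown and -0.40 to 0.18 in rescue against control. The microRNA gene MIR6755 shares 66 exon bases with EED.

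**Figure D2:**
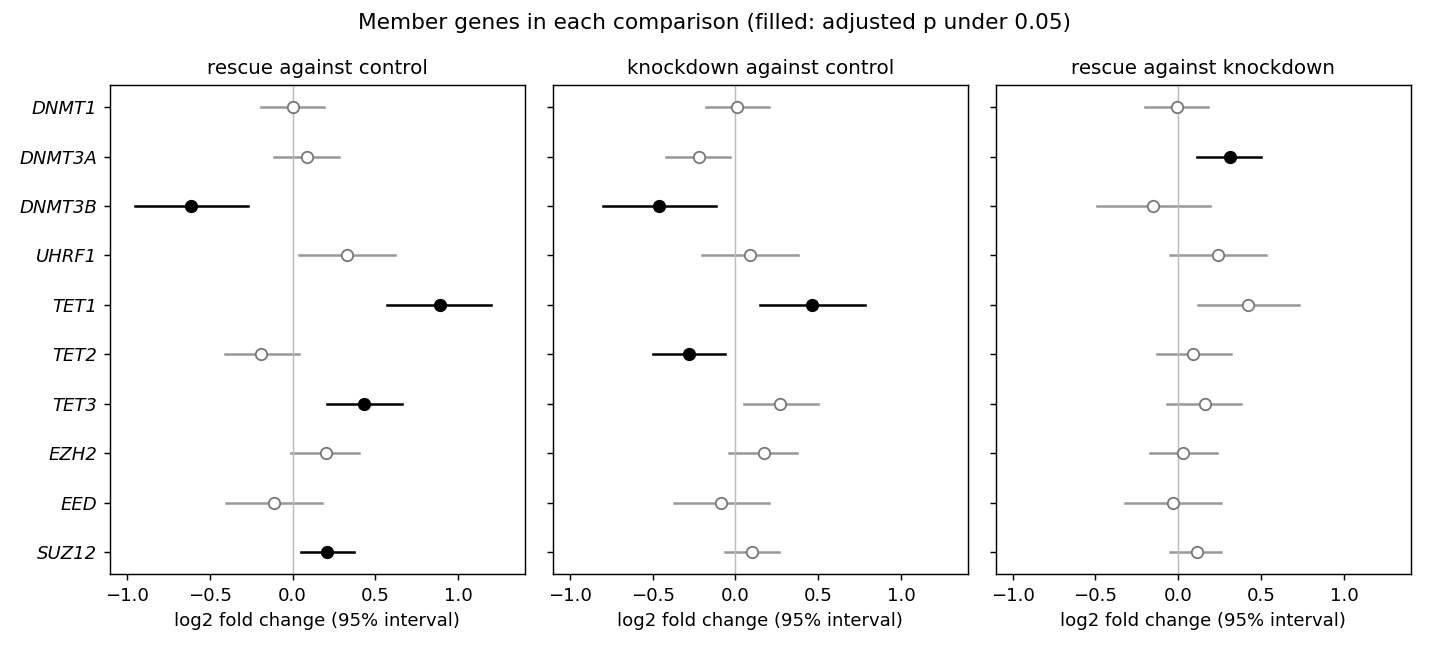
Log2 fold change of each gene in rescue against control, knockdown against control and rescue against knockdown, with points for the estimate, lines for its 95% interval and filled points for adjusted p under 0.05. TET1 in rescue against control is farthest from 0 at 0.89, and DNMT1 lies within 0.01 of 0 in all 3 comparisons.

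EZH1, the alternative catalytic subunit and no member of the set, differed where EZH2 did not pass. EZH1 had 55.4, 52.2 and 55.3 CPM in rescue, 61.1, 58.1 and 59.2 CPM in knockdown and 74.0, 80.0 and 76.8 CPM in control. The 3 groups did not overlap, and control was highest. EZH1 fell in knockdown against control (log2 fold change -0.37, adjusted p = 0.00058) and in rescue against control (-0.50, adjusted p = 1e-05), and did not pass in rescue against knockdown (-0.13, adjusted p = 0.36). Both calls held without any 1 library, with adjusted p up to 0.005 for knockdown and up to 0.00024 for rescue, each against control. Per length, the ratio of EZH2 to EZH1 was 0.966 ± 0.0831 in rescue, 0.866 ± 0.0641 in knockdown and 0.596 ± 0.0314 in control (SD, n = 3 each), a description with no test.

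Levels can be compared between genes only per length, and are given here as CPM per kilobase of the gene's merged exons, with lengths from GENCODE v29 and no test. SUZ12 was highest in all 3 groups, with 12.3 ± 0.0626 CPM per kb in rescue, 11.5 ± 0.69 in knockdown and 10.7 ± 0.407 in control (SD, n = 3 each, here and for the other levels per length). EZH2 averaged 7.50 ± 0.515 CPM per kb in rescue, 7.35 ± 0.407 in knockdown and 6.55 ± 0.0993 in control, and DNMT1 averaged 6.90 ± 0.52, 6.94 ± 0.668 and 6.89 ± 0.758 in the same groups. EZH2 and DNMT1 are neighbours in this order and do not differ beyond their spread in knockdown and control. DNMT3A, UHRF1 and TET3 followed, between 2.70 and 4.66 CPM per kb in the group means, except that in control TET3 (2.70 ± 0.14) and EED did not differ beyond their spread. EED averaged 2.56 ± 0.497 CPM per kb in rescue, 2.61 ± 0.474 in knockdown and 2.77 ± 0.203 in control, about the level of DNMT3B in control (2.62 ± 0.321). TET1 was the lowest gene of the set in knockdown and control, at 1.21 ± 0.194 and 0.877 ± 0.116 CPM per kb, and had 1.63 ± 0.0741 in rescue, where TET2 was lowest at 1.52 ± 0.137. In rescue TET1, TET2 and DNMT3B (1.71 ± 0.236) did not differ beyond their spread. Neither did TET1 and TET2 (1.43 ± 0.0511) in knockdown.

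The makeup of the TET family by length-scaled level also differed between groups. TET1 held 24.0 ± 2.16% of the summed TET level in rescue, 20.5 ± 0.887% in knockdown and 16.5 ± 1.93% in control (SD, n = 3 each). TET2 held 22.4 ± 1.39% in rescue, 24.4 ± 2.58% in knockdown and 32.6 ± 1.06% in control. TET3 held the largest share throughout, with 53.6 ± 2.04%, 55.1 ± 2.12% and 50.9 ± 1.59% in the same groups. The size of each share depends on the merged exon length used, 9288 bases for TET1, 16474 for TET2 and 12271 for TET3. These lengths include every annotated exon and may exceed those of the transcripts expressed here. TET1 shares did not overlap between the 3 groups, and TET2 shares overlapped only between rescue and knockdown. Among the de novo methyltransferases, DNMT3B held 26.9 ± 3.38% of the summed DNMT3A and DNMT3B level in rescue, 33.5 ± 2.33% in knockdown and 37.4 ± 3.48% in control. The ratio of TET1 to DNMT3B, per length, was 0.962 ± 0.149 in rescue, 0.636 ± 0.0616 in knockdown and 0.34 ± 0.0766 in control. These genes have the largest fold changes of the set, with opposite signs against control. Their ratio thus restates those changes and is no separate result.

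**Figure D3:**
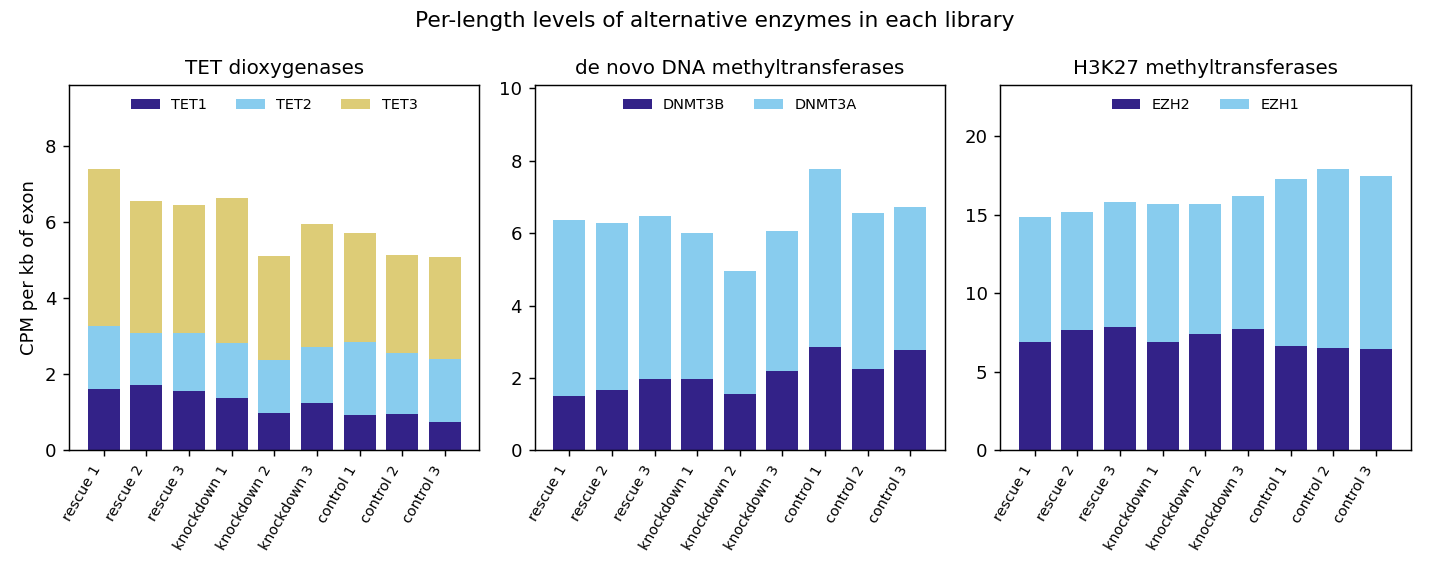
Stacked levels per length, in CPM per kilobase of merged exons, in each library, with panels for the TET dioxygenases, the de novo DNA methyltransferases and the H3K27 methyltransferases EZH2 and EZH1. The TET1 segment is tallest in rescue, where it makes up 24.0% of the TET sum on average, against 16.5% in control, and the EZH1 segment is tallest in control.

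The genes whose pattern over the 9 libraries was most like that of TET1, by root mean square difference of mean-centred log2 CPM, were SLC25A15 (0.108), a mitochondrial ornithine carrier, ZNF827 (0.111), a zinc finger gene, and ST14 (0.114), an epithelial membrane serine protease. ST14 averaged 200.6 ± 10.8 CPM in rescue, 150.6 ± 9.47 CPM in knockdown and 108.5 ± 4.83 CPM in control (SD, n = 3 each), the same order of groups as TET1. Such a shared order follows from picking genes by likeness over the same 9 libraries. Those most like DNMT3B were LRCH3 (0.0760), ZNF316 (0.0922) and TAF1 (0.0941), a subunit of the general transcription factor TFIID. TAF1 averaged 48.1 ± 4.85 CPM in rescue, 55.7 ± 5.94 CPM in knockdown and 69.5 ± 7.08 CPM in control.

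Related genes were read in 11 lists of 126 genes, described by counts beside the background shares given above. Of 11 tested PRC2 accessory genes (EZH1 included), 2 rose and 2 fell in knockdown against control, none passed in rescue against knockdown (0 also at an unadjusted p under 0.05 and in DESeq2), and 3 rose and 3 fell in rescue against control; without control 3 only 1 fell in rescue against control, and the 2 that fell in knockdown against control were 1 without control 3 or any 1 knockdown library. PHF1, a reader of active chromatin that docks on PRC2, rose in knockdown against control (log2 fold change 0.46, adjusted p = 5.4e-05) and in rescue against control (0.41, adjusted p = 0.00015). LCOR, whose locus also encodes a PRC2 accessory protein, rose by 0.36 and 0.50 in the same comparisons (adjusted p = 0.0016 and 2.5e-05). The EZH2 inhibitor gene EZHIP had no counts.

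Of the 19 subunits of PRC1, the partner complex that marks histone H2A, 5 rose and 3 fell in knockdown against control, 2 rose and 2 fell in rescue against knockdown, and 5 rose and 4 fell in rescue against control. The count of 2 that fell in rescue against knockdown was 1 without control 3, without any 1 knockdown or rescue library, and with no filter on low counts. CBX2, a reader of the K27 mark, had 54.8, 46.2 and 51.7 CPM in rescue, 64.1, 63.7 and 63.5 CPM in knockdown and 114.1, 105.0 and 96.6 CPM in control. Control lay far above both other groups, and CBX2 fell in knockdown against control (log2 fold change -0.72, adjusted p = 7.6e-08) and in rescue against control (-1.05, adjusted p = 4.8e-11). In rescue against knockdown it fell by 0.33 (adjusted p = 0.012), a call lost without rescue 2 (0.0995). PCGF5, a subunit of variant PRC1, ran the other way, with 81.7, 75.2 and 83.4 CPM in rescue, 58.5, 64.4 and 49.7 CPM in knockdown and 39.2, 37.2 and 41.8 CPM in control. Its groups did not overlap, and it rose in knockdown against control (log2 fold change 0.55, adjusted p = 3.9e-05), in rescue against knockdown (0.48, adjusted p = 0.00072) and in rescue against control (1.02, adjusted p = 6.2e-10). RING1, an E3 ligase subunit, rose in rescue against knockdown (0.50, adjusted p = 0.0038), and RYBP, which marks variant PRC1, rose in knockdown against control (0.36, adjusted p = 0.00034).

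KDM6A, which removes the K27 mark, had 113.1, 105.2 and 109.1 CPM in rescue, 94.9, 83.5 and 94.3 CPM in knockdown and 133.2, 119.1 and 122.3 CPM in control. Knockdown was lowest, control highest, and the groups did not overlap. KDM6A fell in knockdown against control (log2 fold change -0.46, adjusted p = 2.4e-05) and was higher in rescue against knockdown (0.26, adjusted p = 0.024), the second call being lost without knockdown 2 (0.133), rescue 1 (0.114) or rescue 3 (0.0634). KDM6A had -0.19 in rescue against control (adjusted p = 0.043), lost in 5 of the 9 omissions. KDM6B, the other enzyme of this list, did not pass in any comparison.

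Of 10 tested partners of DNA methylation, 3 rose and 1 fell both in knockdown and in rescue against control, and 1 rose in rescue against knockdown. HELLS, a chromatin remodeller needed for methylation of repeats, had 10.4, 11.1 and 10.1 CPM in rescue, 11.2, 9.04 and 11.2 CPM in knockdown and 5.80, 5.61 and 6.45 CPM in control. Control was lowest throughout, while rescue and knockdown overlapped; HELLS rose in knockdown against control (log2 fold change 0.82, adjusted p = 0.00024) and in rescue against control (0.83, adjusted p = 0.00016). UHRF2, the paralogue of UHRF1, rose in knockdown against control (0.42, adjusted p = 0.0005) and in rescue against control (0.57, adjusted p = 6e-06), with 57.4 CPM on average in rescue, 51.6 in knockdown and 38.7 in control. NSD2, which methylates histone H3 at K36, fell in knockdown against control (-0.27, adjusted p = 0.0047), and USP7, a deubiquitinase that binds DNMT1 and UHRF1, rose in rescue against knockdown (0.29, adjusted p = 0.0071, or 0.0522 without rescue 1). DNMT3L, the cofactor of the de novo enzymes, did not pass the filter.

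Among the 8 methyl-CpG readers, 1 rose in knockdown against control, 1 fell in rescue against knockdown, and 1 rose and 1 fell in rescue against control. Of these, the 1 that rose in rescue against control was 0 without control 3 and 2 without control 1, and the 1 that fell there was 0 without control 1 or rescue 1; without control 1, control 3, knockdown 1 or rescue 2, 1 also fell in knockdown against control. MBD2, a methyl-CG binding repressor, had 36.1, 43.0 and 40.7 CPM in rescue, 55.8, 60.4 and 58.8 CPM in knockdown and 56.6, 46.6 and 46.8 CPM in control. Rescue was lowest without overlap, and MBD2 fell in rescue against knockdown (log2 fold change -0.54, adjusted p = 0.00026). ZBTB33 was the reader that rose in knockdown against control (0.31, adjusted p = 0.0059), a call lost without control 3 (0.0517) or knockdown 1 (0.0669).

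Downstream of the TET enzymes, 7 genes of base excision were tested: 2 rose and 1 fell in knockdown against control, 1 rose in rescue against knockdown, and 1 rose and 1 fell in rescue against control. The 2 that rose in knockdown against control were 1 without control 3, knockdown 2 or knockdown 3. The 1 that fell there, APEX1 (-0.24, adjusted p = 0.039), was lost in DESeq2 (0.0524), with only these groups fitted (0.0601) and without control 2 (0.184), control 3 (0.182), knockdown 1 (0.121), knockdown 3 (0.185) or rescue 1 (0.0532); without control 1 or knockdown 2 the count that fell was 2. The one that rose in all 3 comparisons was PARP1, a sensor of DNA breaks, with log2 fold changes of 0.28 in knockdown against control (adjusted p = 0.0021), 0.34 in rescue against knockdown (0.0014) and 0.62 in rescue against control (3.2e-08).

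Of 11 genes for the methyl donor and for oxoglutarate, 2 rose and 1 fell in knockdown against control, and 2 fell in rescue against knockdown. In rescue against control 2 rose and 3 fell. Without control 1, 2 fell in knockdown against control and 1 rose in rescue against knockdown. That 1 also rose in DESeq2, with no filter on low counts, with 2 groups only and with the replicate number as a block. MAT2A, which makes the methyl donor S-adenosylmethionine, had 132.3, 145.0 and 144.2 CPM in rescue, 116.1, 126.3 and 138.8 CPM in knockdown and 178.7, 203.0 and 194.5 CPM in control. Control was highest without overlap, and MAT2A fell in knockdown against control (log2 fold change -0.60, adjusted p = 4.9e-07) and in rescue against control (-0.45, adjusted p = 2.5e-05). Its regulatory partner MAT2B moved the other way (0.46, adjusted p = 0.00089, and 0.50, adjusted p = 0.00031, in the same comparisons), as did IDH1, a cytosolic source of oxoglutarate (0.50, adjusted p = 8.9e-06, and 0.56, adjusted p = 9.1e-07). The mitochondrial enzyme IDH2 fell in rescue against knockdown (-0.34, adjusted p = 0.0014), and so did AHCY, which clears the by-product of methylation (-0.31, adjusted p = 0.0032).

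S-phase genes are shown because DNMT1, UHRF1 and EZH2 are usually highest in dividing cells. Of 15, 3 rose and 1 fell in knockdown against control, and 1 rose and 1 fell in rescue against knockdown. In rescue against control 8 rose and 1 fell, where 19% of all tested genes rose and 18.8% fell. The count of 8 was 3 without rescue 1 and 4 without control 1, and the count of 3 was 1 without control 1, control 2 or knockdown 3. Between rescue and knockdown the 1 that rose was 0 without rescue 1, and the 1 that fell was 2 without control 1 or knockdown 2. The median log2 fold change of the list was 0.24 in rescue against control, where UHRF1 had 0.33, EZH2 0.20 and DNMT1 a 95% interval of -0.19 to 0.19. None of these 3 genes passed there (adjusted p = 0.068 for UHRF1 and 0.12 for EZH2). Whether they follow the list was not tested. PCNA rose in knockdown against control (0.36, adjusted p = 0.01), a call lost without control 1 (0.0732) or knockdown 2 (0.0816). MCM2 rose there too (0.27, adjusted p = 0.019), a call lost without control 1 (0.0524), control 2 (0.0602) or knockdown 3 (0.0868). RRM2, a ribonucleotide reductase subunit, fell in knockdown against control (-0.50, adjusted p = 8.6e-05). It rose in rescue against knockdown (0.36, adjusted p = 0.0096, or 0.0618 without rescue 1). CDT1, a licensing factor, fell in rescue against knockdown (-0.38, adjusted p = 0.0055).

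**Figure D4:**
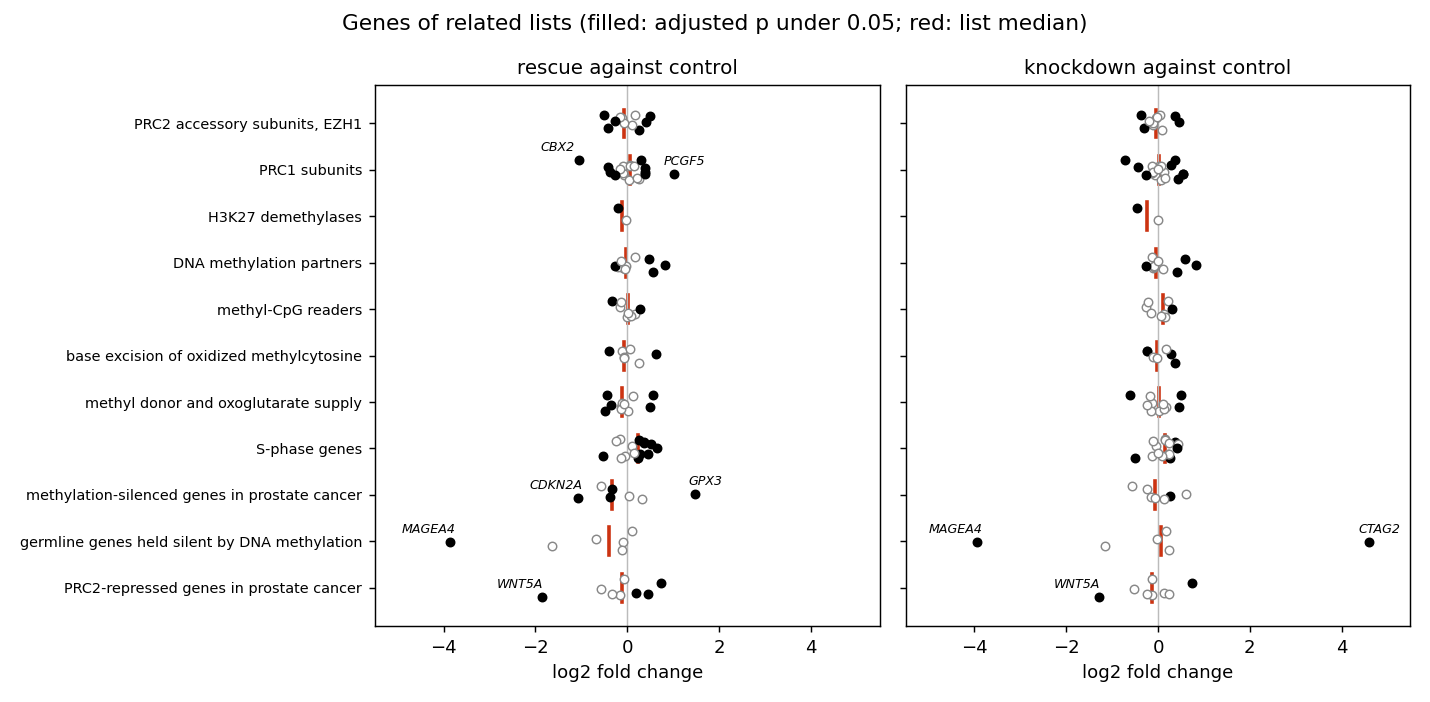
Log2 fold change of each tested gene of the 11 lists in rescue against control and in knockdown against control, with 1 point per gene, filled where adjusted p is under 0.05, and a red line at the list's median. Most points lie near 0, and MAGEA4 (-3.85 in rescue, -3.94 in knockdown) lies far to the left, while CTAG2 in knockdown (4.59) lies far to the right.

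Genes known as silenced by these systems were in part too weakly expressed to test. In the list of genes often silenced by DNA methylation in prostate cancer, 7 of 15 passed the filter, with 1 higher in knockdown against control, 1 lower in rescue against knockdown, and 1 higher and 3 lower in rescue against control. The 1 higher in knockdown was 0 without control 1 or knockdown 2, where 1 was lower instead, and the 1 lower in rescue against knockdown was 2 without control 1. The 1 higher in rescue against control was 0 without any 1 library except control 1 and rescue 2, and 2 without rescue 2, and the 3 lower there were 1 without control 2, control 3 or rescue 3. GSTP1, the classic example, had 35 counts over all 9 libraries. CDKN2A, which encodes cell-cycle inhibitors, had 15.0, 13.2 and 11.9 CPM in rescue, 25.0, 25.0 and 30.2 CPM in knockdown and 27.4, 27.1 and 29.2 CPM in control. Every rescue library was below every other library, and CDKN2A fell in rescue against knockdown (log2 fold change -1.0, adjusted p = 8.9e-07) and in rescue against control (-1.07, adjusted p = 2.7e-08), with -0.06 in knockdown against control (adjusted p = 0.72). Among germline genes usually held silent by DNA methylation, 6 of 14 passed the filter. Of these, 1 rose and 1 fell in knockdown against control, 1 fell in rescue against knockdown and 1 fell in rescue against control. The count that rose in knockdown against control was 2 without control 2. Not all of the list was silent in these cells. MAGEA3 averaged 124.5 CPM in rescue, 130.3 in knockdown and 115.2 in control, and passed in no comparison. CTAG2, a cancer-testis antigen, averaged 0.303 CPM in rescue, 7.71 CPM in knockdown and 0.324 CPM in control. It was the gene that rose in knockdown against control (log2 fold change 4.59, adjusted p = 1.1e-09) and fell in rescue against knockdown (-4.69, adjusted p = 8.9e-09). MAGEA4, another such antigen, had 2.70, 2.97 and 3.48 CPM in rescue, 2.90, 3.32 and 2.39 CPM in knockdown and 36.8, 50.3 and 46.3 CPM in control. The control level was far above both others, with log2 fold changes of -3.94 in knockdown against control (adjusted p = 1.7e-17) and -3.85 in rescue against control (adjusted p = 1.2e-17). CTAG2, MAGEA3 and MAGEA4 belong to multigene families on the X chromosome, so their reads may be shared with other copies.

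Of 11 genes that PRC2 is known to repress in prostate cancer, 8 passed the filter, with 1 higher and 1 lower in knockdown against control, and 3 higher and 1 lower in rescue against control; without control 3 or rescue 2 only 1 was higher there. In rescue against knockdown 0 passed in edgeR and 0 in DESeq2, with 2 at an unadjusted p under 0.05; 1 was lower without knockdown 2 and with the replicate number as a block. WNT5A, a non-canonical Wnt ligand, had 4.71, 2.69 and 4.49 CPM in rescue, 6.67, 4.25 and 6.63 CPM in knockdown and 13.9, 12.9 and 16.3 CPM in control. Control was highest, and WNT5A fell in knockdown against control (log2 fold change -1.29, adjusted p = 1e-05) and in rescue against control (-1.86, adjusted p = 3.5e-08), with -0.57 in rescue against knockdown (adjusted p = 0.095). IGFBP5, which encodes a binding protein for insulin-like growth factors, was the one that rose in knockdown against control (0.74, adjusted p = 0.024), a call lost without control 2 (0.0694), control 3 (0.127) or knockdown 2 (0.0746). No methylation or histone mark was measured in these libraries, and whether any of these genes follows the enzymes' levels was not tested.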

How the data were processed

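RNA-seq of total RNA (RNeasy) gave 9 libraries, 3 per group. The authors deposited 1 table of unnormalized read counts per library. The submitters' processing notes name the tools FastQC, cutadapt, HISAT2 and HTSeq and the build hg19; no source used here gives their versions or the strand setting, so overlapping and antisense genes cannot be separated. Gene identifiers were matched without their version to symbols: 56373 were found in the symbol table, 444 more in GENCODE v29, and 4063 in neither. Gene counts were 40.3% to 42.92% of each table; rows naming no gene (48.83% to 50.71% no feature, 2.26% to 2.67% ambiguous, 5.26% to 7.62% not unique) were left out.

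With edgeR 4.0.16 in R 4.3.3, genes were kept by filterByExpr (minimum count 10), leaving 18389, scaled by TMM, and fitted by a robust quasi-likelihood model with a mean for each group, using all 9 libraries, which leaves 6 residual degrees of freedom. Genes with a Benjamini-Hochberg adjusted p under 0.05 over all tested genes were called, and every adjusted p in the text comes from this test unless another setting is named. The SE was worked back from the test, as the size of the log2 change divided by the root of F; 95% intervals use the moderated degrees of freedom. CPM use TMM-adjusted library sizes; CPM per kb divide by GENCODE v29 merged exon length, since an hg19 annotation was not used here. Sums and shares have no test.

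The 10 genes and all lists were chosen with earlier results of these data known. The rule for named genes took the 10 genes, up to 3 tested members per list with the smallest adjusted p in 2 of the comparisons (knockdown against control, rescue against knockdown), and the 3 genes nearest in pattern to the 2 genes with the largest change; EZHIP, DNMT3L and GSTP1 were named after their values were seen, as were the list counts in the third comparison. Alternatives were RLE size factors, DESeq2 1.42.0, no filter, 2 groups only, no mitochondrial genes, a replicate block, and leaving out each library. The scripts were tested on simulated data. Some listed genes and markers are not reported here, and counts and sums leave them out.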

Additional observations from a re-analysis of the deposited data

How the results depend on the processing

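Each of the 30 fold changes was refitted under 15 alternatives. Over these refits 388 values kept direction and side of the threshold, 28 lost the call, 11 gained it and 23 turned sign, all 23 in uncalled comparisons. The number of genes called ranged, leaving out 1 library, over 4858 to 5788 (5899 with all) in knockdown against control, 1196 to 2364 (1854) in rescue against knockdown, lowest without rescue 1, and 5809 to 6995 (6946) in rescue against control. Of the 10 genes, 0 to 3 (3) passed in knockdown against control, 0 to 2 (1) in rescue against knockdown and 3 to 4 (4) in rescue against control; with only the groups compared, 2 passed in rescue against knockdown. Of 990 list counts 95 moved by over 1.5 times.

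DNMT1 turned in rescue against control to 0.004 with RLE size factors, DESeq2, no filter or no mitochondrial genes, 0.008 with 2 groups only and 0.002 with the block, and ranged over -0.086 to 0.067 leaving out 1 library. Across the same omissions the log2 fold change of DNMT1 ranged over -0.078 to 0.077 in knockdown against control and -0.072 to 0.061 in rescue against knockdown. That of UHRF1 ranged over -0.044 to 0.178 in knockdown against control, and that of EZH2 over -0.012 to 0.083 in rescue against knockdown. That of EED ranged over -0.242 to 0.01 in knockdown against control, -0.171 to 0.135 in rescue against knockdown and -0.255 to 0.021 in rescue against control. The cause was not tested.

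Deviations from group means correlated at -0.037 to 0.077 in the 9 same-numbered pairs and -0.089 to 0.077 in the 18 others. No pairing by replicate number was thus seen across genes together, but such a correlation cannot exclude a replicate effect on some genes. Replicate 1 was highest in every group for DNMT3A and TET3 and lowest in every group for EED. Not all 10 genes had such an order, and for DNMT1 the highest replicate differed between groups. More genes were called in all 3 comparisons with the replicate number as a block. Whether the libraries are paired was not settled. With the replicate number as a block, 5 of the 10 genes passed in knockdown against control, DNMT3A (adjusted p = 0.0429) and TET3 (0.0258) being the added ones. Precision is limited by 3 libraries per group and, for DNMT3B and TET1, by counts of 143 to 395 per library.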
